A study of Mus musculus with 6 samples.

Results

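The RNA exosome is the complex that degrades and trims RNA from its 3' end in the nucleus and cytoplasm of animal cells. Reads of its subunit genes were followed in mouse common myeloid progenitors, marrow cells that can still form the granulocyte, monocyte, red cell and platelet lineages. The genes were taken by name: Exosc1, Exosc2, Exosc3, Exosc4, Exosc5, Exosc7, Exosc8, Exosc9, Exosc10 and Dis3. They are 10 of the 13932 genes in the deposited gene table and hold 140 of the 151811 splice junctions in the deposited junction table. The set was proposed with the values of these same libraries known, the skipping of an Exosc3 exon among them. All values below that set S34F against WT are therefore descriptions. Where a test called a subunit, this is given as a count beside the share called over all features, and supports nothing. All 10 genes passed the filter on low counts, and Exosc6, a further subunit gene, was looked for but was not among the genes tested.

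The S34F group consisted of progenitors with the U2AF1(S34F)/rtTA transgenes and the WT group of progenitors with the U2AF1(WT)/rtTA transgenes. Both groups carried the rtTA transactivator and both were given doxycycline chow for 5 days, so WT progenitors also expressed an induced U2AF1 transgene and there was no uninduced group. The marrow had been transplanted into recipient mice more than 6 weeks earlier, and each library pooled marrow from 4 to 5 mice. There were 3 libraries per genotype. The number of donors behind the pools is not given in the sources used here.

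U2AF1 is the small subunit of the factor that recognises the AG at the 3' end of an intron, the acceptor, and residue S34 lies in a zinc finger that contacts RNA near it. S34F is a recurrent mutation of myeloid leukaemias and myelodysplasia and is known to favour some acceptors and disfavour others according to the base just before the AG, at intron position -3. The exosome itself is a barrel. Exosc4, Exosc5, Exosc7, Exosc8 and Exosc9 belong to its ring of RNase PH-like subunits, which lack catalytic activity in mammals. Exosc1, Exosc2 and Exosc3 form the cap through which RNA enters, and Exosc10 and Dis3 are the nucleases that cut. In mouse erythroid precursors, Exosc8 and Exosc9 are known to hold back maturation, and DIS3 is recurrently mutated in human multiple myeloma.

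The choices of splice site that DESeq2 called lay in Exosc3 and Exosc9, and the sequences at these sites are shown so that the competing acceptors can be compared. They were read from the NCBIM37 genome, the build named mm9, on the strand of each gene. In the first, 187 bases at chr4:45330540-45330726, the capitals mark exon 3 of Exosc3. In the others the capitals mark the acceptor AG with the base at position -3 before it. The stretches lie at chr4:45330692-45330726 and chr4:45329891-45329925 for Exosc3, and at chr3:36461970-36462044 for Exosc9, where both acceptors are marked.
Exosc3 exon 3: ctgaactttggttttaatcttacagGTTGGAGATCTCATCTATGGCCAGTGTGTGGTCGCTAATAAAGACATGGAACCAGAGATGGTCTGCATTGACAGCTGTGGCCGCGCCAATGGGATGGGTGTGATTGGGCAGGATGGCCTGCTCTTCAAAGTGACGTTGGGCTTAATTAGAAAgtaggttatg
Exosc3 exon 3 acceptor: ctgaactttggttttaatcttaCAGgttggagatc
Exosc3 exon 4 acceptor: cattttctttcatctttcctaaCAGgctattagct
Exosc9 exon 10 acceptors: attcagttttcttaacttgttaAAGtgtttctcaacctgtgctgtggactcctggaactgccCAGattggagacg
Both Exosc3 acceptors have C at -3. In Exosc9 the upstream acceptor has A and the downstream one, 40 nt on, has C.

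The S34F libraries held between 46827909 and 51862032 gene counts and the WT libraries between 54727541 and 94562984, so every S34F library was shallower than every WT library. Single exosome genes had between 1132 and 10359 counts per library. Kit and Cd34, which the sort selected for, were present in every library, with a summed level of 844 to 1059 CPM in S34F, against 916 to 1029 CPM in WT (CPM are counts put on a common scale by TMM normalisation). Ly6a, which encodes the Sca-1 marker that the sort selected against, reached at most 1.44 CPM in the S34F libraries and 1.84 CPM in the WT libraries. The sort also selected against Fc gamma receptors, but RNA of 2 of their genes was present in every library. Fcgr3 was at 33.4 to 78.1 CPM in S34F and 38.8 to 110.8 CPM in WT. Fcgr2b was at 35.4 to 49.1 CPM in S34F and 41.5 to 51.3 CPM in WT. Of 5 T cell markers, 1 was measured, at under 1.3 CPM in every library. Markers of other lineages were present. For 4 measured of 5 B cell markers the summed level was 22.1 to 25.5 CPM in S34F and 22.6 to 27.7 CPM in WT. For 5 of 6 listed symbols of granulocyte and monocyte markers, which include an older and a newer symbol of a gene, the sum was 622 to 909 CPM in S34F and 596 to 1098 CPM in WT. For 3 of 4 erythroid markers the sum was 3.86 to 5.72 CPM in S34F and 6.66 to 7.56 CPM in WT. Lower in S34F were 9 of 10 dendritic cell markers, with a summed level of 51.9 to 107 CPM against 186 to 379 CPM in WT. Xist, the RNA of the inactive X chromosome, was near 0 in replicate 1 of both genotypes (0.0191 CPM in S34F, against 0.0906 CPM in WT), whereas it was above 1360 CPM in the others. The part of depth and of dendritic cell RNA in the values below was not tested.

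At the level of whole genes, the exosome subunits were split evenly between the directions, with 5 higher and 5 lower in S34F. Their log2 fold changes ran from -0.18 to 0.27 and had a median of -0.0059, against -0.0052 over all 13905 genes tested. The summed level of the 10 genes was 640, 700 and 630 CPM in the S34F libraries and 609, 631 and 689 CPM in the WT libraries, which overlapped. edgeR called 0 of the 10 at an adjusted p under 0.05, where it called 0% of all genes, and DESeq2 also called 0 of the 10, where it called 0.69% of all genes. At an unadjusted edgeR p under 0.05 there was 1 exosome gene, Dis3, against 9.1% of all genes. The adjusted p in the authors' deposited table was under 0.05 for 0 of the 10 and for 0.63% of all genes with a value. In bulk RNA of this kind, fewer cells of a type and less RNA per cell cannot be told apart.

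**Figure D1:**
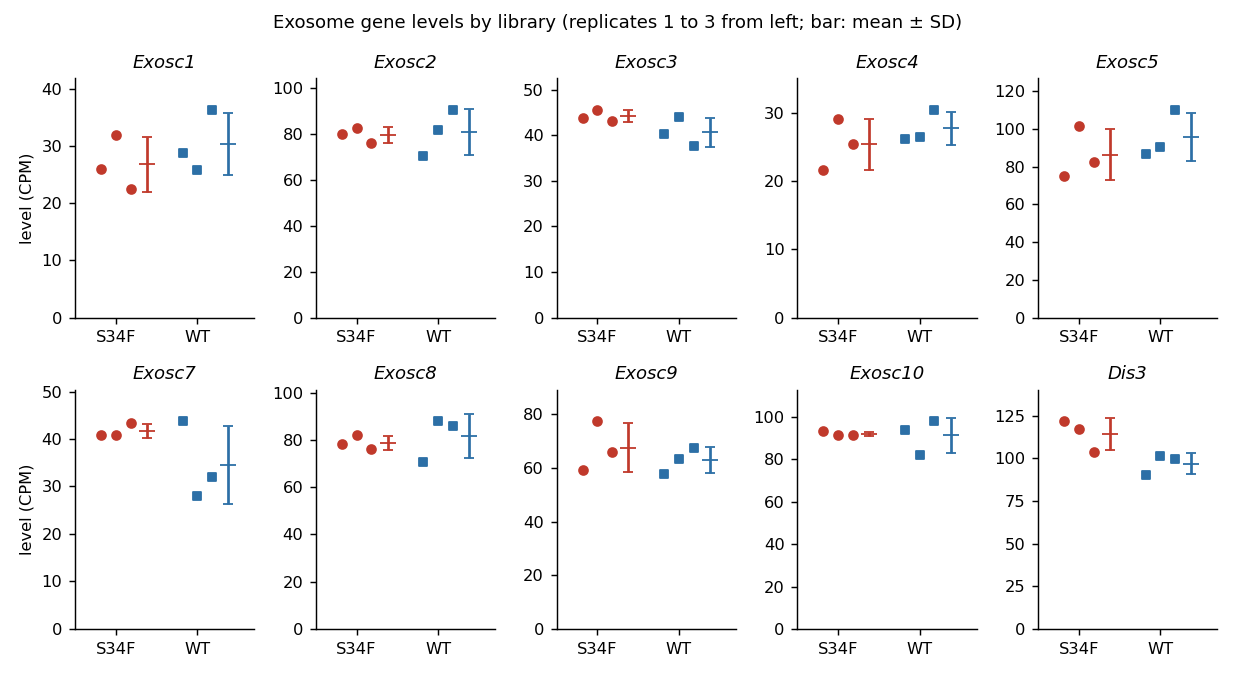
Levels of the 10 exosome genes in CPM (vertical axes, from 0) in the 3 S34F libraries (red circles, left) and the 3 WT libraries (blue squares, right), with the mean ± SD beside each group. Dis3 is the gene in which the genotypes do not overlap, and WT replicate 1 stands apart from the other WT libraries for Exosc7.

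Among the cap subunits, Exosc3, an RNA-binding subunit whose human gene is mutated in a form of pontocerebellar hypoplasia, was at 43.8, 45.7 and 43.2 CPM in S34F and 40.3, 44.1 and 37.7 CPM in WT. Its means were 44.2 ± 1.27 and 40.7 ± 3.199 CPM (SD, n = 3 each), with a log2 fold change of 0.12 ± 0.10 (standard error). The genotypes overlapped, with S34F replicates 1 and 3 below WT replicate 2, the highest of its group. Exosc2 was at 80.3, 82.8 and 76.1 CPM in S34F and 70.6, 81.8 and 90.7 CPM in WT (log2 fold change -0.02 ± 0.11), so the S34F libraries lay within the WT range. Exosc1 was at 26.0, 32.0 and 22.5 CPM in S34F and 28.9, 25.9 and 36.4 CPM in WT (log2 fold change -0.18 ± 0.18), with a wide spread in both genotypes.

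Among the ring subunits, which form the barrel wall, Exosc5 was at 75.3, 101.6 and 82.4 CPM in S34F and 86.7, 90.4 and 110.3 CPM in WT (log2 fold change -0.15 ± 0.15), and Exosc4 at 21.7, 29.2 and 25.4 CPM in S34F and 26.3, 26.5 and 30.5 CPM in WT (-0.13 ± 0.14). For both genes S34F replicate 2 was the highest of its genotype and WT replicate 3 the highest of the other. Exosc8 was at 78.2, 82.1 and 76.0 CPM in S34F and 70.8, 88.1 and 86.1 CPM in WT (-0.05 ± 0.11), again with S34F inside the WT range. Exosc9 was at 59.3, 77.5 and 66.0 CPM in S34F and 57.8, 63.4 and 67.5 CPM in WT (0.10 ± 0.13).

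Exosc7, the remaining ring subunit, had the largest fold change of the set. It was at 40.8, 40.9 and 43.4 CPM in S34F and 43.8, 27.9 and 32.1 CPM in WT, a log2 fold change of 0.27 ± 0.17. The S34F libraries lay close together, whereas WT replicate 1 was above all of them and the other WT libraries were below all of them. Without WT replicate 2 the log2 fold change was 0.14. Without WT replicate 1 it was 0.48, and edgeR then called Exosc7 among 1172 genes called in all. Without both replicate 1 libraries it was 0.49 and edgeR did not call it.

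Of the nucleases, Dis3, which has exonuclease and endonuclease activity, was at 121.9, 117.1 and 103.6 CPM in S34F and 90.1, 101.2 and 99.5 CPM in WT. Its means were 114 ± 9.51 and 96.9 ± 5.99 CPM, a log2 fold change of 0.24 ± 0.10. Every S34F library was above every WT library. Without both replicate 1 libraries the log2 fold change of Dis3 was 0.14. No overlap with S34F above held for 1 of the 10 exosome genes and for 7.16% of all genes tested. All S34F libraries were below all WT libraries for 0 of the 10 and for 8.47% of all genes, and 15.6% of all genes did not overlap in either direction. Exosc10, the nuclear exonuclease of the complex, was at 93.2, 91.5 and 91.5 CPM in S34F and 93.9, 81.9 and 98.1 CPM in WT (log2 fold change 0.01 ± 0.10), where the S34F libraries lay inside the WT range.

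Per length, on the scale of the authors' FPKM values, Exosc5 was the most abundant of the 10 mRNAs, at 60.0 ± 2.32 FPKM in S34F and 84.6 ± 24.3 FPKM in WT (mean ± SD, n = 3 each). Exosc8 followed with 32.7 ± 2.57 and 46.3 ± 10.9 FPKM, and both gaps in the order were beyond the larger SD of the neighbours in both genotypes. Exosc2 (20.8 ± 2.50 and 25.6 ± 4.84 FPKM) and Exosc3 (18.8 ± 1.40 and 21.8 ± 1.99 FPKM) came next and did not differ beyond their spread in either genotype. Exosc7, Exosc10 and Exosc9 lay between 13.95 and 18.3 FPKM in mean, and neighbours among them also lay within their spread. They stood apart from Exosc3 beyond the spread in WT alone, since in S34F the gap from Exosc3 to Exosc7 was within it. At the low end Exosc1 had 8.09 ± 0.415 FPKM in S34F and 11.9 ± 3.84 FPKM in WT, and Exosc4 and Dis3 had at most 12.0 FPKM in mean in either genotype. In WT, Exosc1, Exosc4 and Dis3 did not differ from each other beyond their spread. By the mean FPKM over all 6 libraries Exosc1 was lowest of the 10, above 63.1% of all genes, and Exosc5 was above 96.1%. The FPKM values were used for this order alone, since they are not scaled between libraries in the way the CPM are.

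Exosc3 showed an exon skip that was read in S34F libraries and in no WT library. Exon 3 of its 4 exons is 152 nt long (chr4:45330550-45330701, minus strand, coding) and is joined to exon 2 and exon 4. The junction from exon 2 straight to exon 4 had 20, 23 and 18 reads in S34F and 0, 0 and 0 reads in WT. The junctions that include the exon had 545, 481 and 547 reads in S34F and 529, 711 and 758 reads in WT on its upstream side. On its downstream side they had 579, 557 and 490 reads in S34F and 551, 825 and 979 reads in WT. The skip thus took a small share of a well-covered exon.

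As a share of the reads that leave exon 2, the skip was at 3.54%, 4.56% and 3.19% in S34F, or 3.76 ± 0.715% (n = 3). In S34F the Wilson 95% intervals of the libraries together spanned 2.02% to 6.75%. In WT the share was 0 of 529, 711 and 758 reads, which allows a share of up to 0.567%, 0.422% and 0.396% (3 counts of each total). Intervals and limits cover counting error only. Seen from the exon 4 acceptor, the share was 3.62 ± 0.320% in S34F and 0% in WT. With the libraries left out in turn, the difference at exon 2 lay between 3.36 and 4.05 percentage points. The skipping junction is annotated in another transcript of the gene, so the skip is a known form. Over all 6 libraries it made 1.68% of the reads leaving exon 2 and 1.51% of those entering exon 4, under the 2% minimum for cassette exons, and it was tested only as an acceptor and a donor choice.

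**Figure D2:**
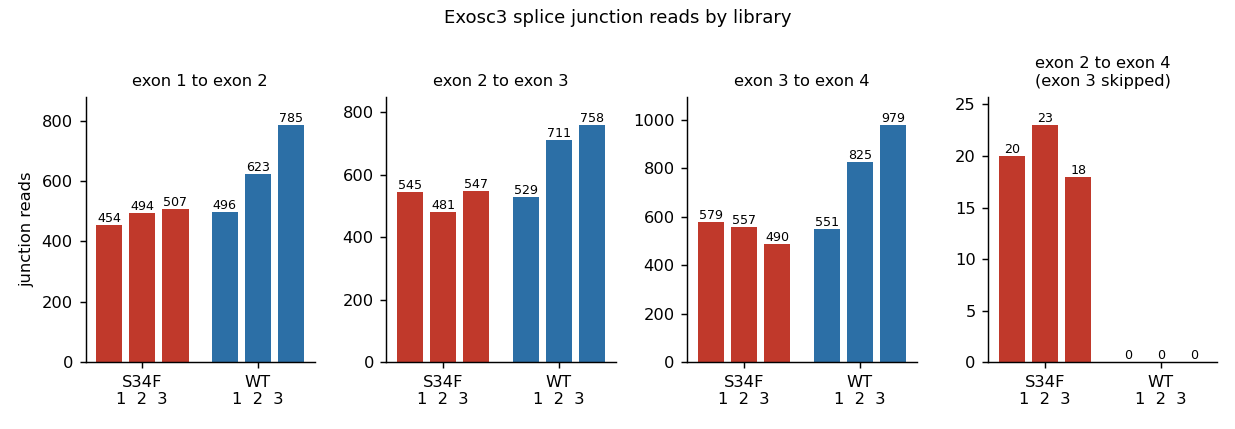
Reads of 4 Exosc3 splice junctions (vertical axes, from 0, with a different range in each panel) in the S34F libraries (red, left) and WT libraries (blue, right), replicates 1 to 3 in each group. The junction that skips exon 3 has 20, 23 and 18 reads in S34F and 0 in each WT library, while the other 3 junctions have 454 to 979 reads in every library.

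The table was searched for junctions with 0 reads in a library where the others had many. There were 611194 cases of a junction in a library in which the other 5 libraries each had 20 or more reads. Among them 176 had 0 reads in that library and 51 had 1 to 3, against 455 with 4 to 9, so a 0 was more frequent than 1, 2 and 3 reads together. WT replicate 3, the deepest library, held 80 of the 176. In the whole table, 10 junctions had 15 or more reads in every S34F library and 0 in every WT library, the Exosc3 skip among them, and 10 had the reverse. Among the exosome genes, 14 junctions in 8 genes had 0 reads in a library and 15 or more in another. Of these, 4 had their zeros in S34F alone, 8 in WT alone and 2 in both genotypes. The part of such zeros in the Exosc3 result was not tested.

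DESeq2 called both forms of the Exosc3 choice at exon 2 and both at exon 4. Limma called the pair at each site too, and edgeR called none of them. Per the authors' deposited table, 2 of the 140 exosome junctions had a DEXSeq adjusted p under 0.05, the Exosc3 skip and the downstream acceptor of Exosc9, against 0.34% of all junctions with a value. Over acceptor choices, DESeq2 called 4 of 39 in exosome genes, both forms in Exosc3 and both in Exosc9, against 1.24% of all. Limma called 2 of the 39, against 0.199% of all, and edgeR 0 of the 39, against 0% of all. Over donor choices, DESeq2 called 2 of 42, against 0.816% of all, limma 2 of 44, against 0.219%, and edgeR 0 of 44, against 0.00997%. Of 9 cassette exons in exosome genes, edgeR, limma and DESeq2 called 0, against 0%, 0% and 1.4% of all, and 1 had an unadjusted edgeR p under 0.05, against 10.2% of all. At the same unadjusted p there were 6 of the 39 acceptor choices, against 7.51% of all, and 2 of the 44 donor choices, against 6.42% of all. The rule that chose the genes used this contrast, so these counts support nothing.

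Leaving out exon 3 removes 152 nt, which leaves a remainder of 2 after division by 3 and so shifts the reading frame. The full Exosc3 coding sequence has 274 codons before its stop, and the skipped form 163, with the new stop in the last coding exon, 18 nt past the last exon junction. In the same gene, an unannotated donor 255 nt upstream of the end of exon 1 was joined to exon 2 by 10, 6 and 12 reads in S34F and 1, 9 and 0 reads in WT. Its share was 1.89 ± 0.602% in S34F and 0.542 ± 0.771% in WT, with overlapping libraries.

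Exosc9 held the other choice that DESeq2 called. Exon 9 can be spliced to 2 acceptors of exon 10, shown above. The downstream one, at chromosome 3, position 36462035, had 3, 2 and 5 reads in S34F and 13, 25 and 50 reads in WT. The upstream one, at 36461995, had 516, 595 and 528 reads in S34F and 496, 741 and 1064 reads in WT. The share of the downstream acceptor was 0.578%, 0.335% and 0.938% in S34F and 2.55%, 3.26% and 4.49% in WT, so every S34F library was below every WT library. The means were 0.617 ± 0.303% and 3.44 ± 0.979%, a difference of -2.82 percentage points, which lay between -3.26 and -2.29 with libraries left out in turn.

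Use of the downstream Exosc9 acceptor removes 40 nt, a remainder of 1, and places a stop after 329 codons in coding exon 10 of 12, against 438 codons in the full form. That stop lies 211 nt before the last coding exon junction. As background, messages with a stop upstream of their last exon junction are a known class of substrates of nonsense-mediated decay, which removes such RNA. The stability of the forms was not measured here. The Exosc9 locus overlaps Ccna2 on the opposite strand by 864 nt, and whether the gene counts used strand is not given in the sources used here. Overlaps of 632, 619, 85 and 338 nt hold for Exosc3 with Dcaf10, Exosc4 with Oplah, Exosc8 with Fam48a and Dis3 with Pibf1, so reads of these pairs might not be told apart in the gene counts.

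In Dis3 the largest differences lay at the 5' end of the gene. An unannotated exon of 68 nt in the first intron (chr14:99498338-99498405, minus strand) was joined to exon 2 by 28, 22 and 27 reads in S34F and 33, 56 and 83 reads in WT. Of the reads that enter exon 2 it took 12.4%, 11.2% and 11.5% in S34F, against 15.3%, 22.4% and 22.3% in WT, without overlap between the libraries and with a difference of -8.28 percentage points between the means. Exon 1 was joined to the 68-nt exon by 14, 11 and 14 reads in S34F and 20, 32 and 23 reads in WT. In every library these were fewer than the reads that join it to exon 2. The share at exon 2 is thus not a measure of its acceptor alone. The acceptor of the 68-nt exon has T at -3, whereas the acceptor of exon 2 has A. Exon 1 was joined straight to exon 2 by 198, 174 and 207 reads in S34F, against 183, 194 and 289 reads in WT, which is 93.7 ± 0.331% and 89.5 ± 3.43% of the reads that leave exon 1.

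An inner acceptor of Dis3 exon 5, unannotated and 91 nt downstream of the main one, had 24, 29 and 36 reads in S34F and 0, 0 and 23 reads in WT. Its share was 6.45 ± 2.26% in S34F and 1.01 ± 1.75% in WT. This junction is among those with a 0 in some libraries and 15 or more in others, and WT replicate 3 alone among the WT libraries had reads of it. Exon 3 of Dis3, of 194 nt, was skipped by 17, 21 and 18 reads in S34F and 12, 15 and 13 reads in WT, and its inclusion was 96.1 ± 0.656% and 97.6 ± 0.684%. The competing Dis3 sites are shown because they differ at -3. They lie at chr14:99498328-99498430 (the 68-nt exon in capitals), chr14:99498052-99498081, chr14:99494550-99494584 and chr14:99494459-99494493.
Dis3 intron 1 exon: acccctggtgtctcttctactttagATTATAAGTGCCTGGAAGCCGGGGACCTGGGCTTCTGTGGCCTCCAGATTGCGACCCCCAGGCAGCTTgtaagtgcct
Dis3 exon 2 acceptor: catttggctttggttttttAAGattgatgt
Dis3 exon 5 acceptor: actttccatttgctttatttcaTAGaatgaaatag
Dis3 exon 5 inner acceptor: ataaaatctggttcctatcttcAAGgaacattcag
In both of these Dis3 choices the site with A at -3 had a larger share in S34F than in WT. The site with T had a smaller share in S34F than in WT. In another Dis3 choice the exon 13 acceptor, with A, also competes with an acceptor with T, and there the site with A was at 95.5 ± 1.63% in S34F and 95.7 ± 1.26% in WT, with overlap.

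In Exosc10 the donor of exon 15 competes with an inner donor 60 nt on. The main donor had 291, 282 and 261 reads in S34F and 345, 305 and 506 reads in WT, and the inner one 19, 20 and 31 reads in S34F and 29, 38 and 85 reads in WT. The share of the main donor was 92.2 ± 2.46% in S34F and 88.9 ± 3.31% in WT, with overlapping libraries. At exon 24, an acceptor 4 nt downstream of the main one had 18, 9 and 13 reads in S34F and 4, 14 and 12 reads in WT, or 4.98 ± 1.16% and 2.41 ± 1.28%. Here the libraries did not overlap.

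Among the ring subunits, exon 7 of Exosc8, of 46 nt, was skipped by 18, 14 and 19 reads in S34F and 24, 45 and 64 reads in WT. The skip took 2.36 ± 0.531% of the reads that leave exon 6 in S34F and 4.13 ± 0.401% in WT, without overlap. The choice with the largest difference in Exosc8 rested on few reads. It lay at an unannotated acceptor 5 nt inside exon 9, joined to exon 8 by 28, 0 and 22 reads in S34F and 27, 25 and 29 reads in WT, and to exon 7 by 4, 20 and 15 reads in S34F and 0, 20 and 35 reads in WT. The share from exon 8 was 49.0 ± 44.7% in S34F and 67.0 ± 29.1% in WT, and the difference of -18.0 points changed sign when a library was left out, with a range of -37.2 to 6.52 points.

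In Exosc4, a ring subunit gene of 3 exons, the main donor of exon 1 starts with GC in place of the usual GT. It had 134, 231 and 223 reads in S34F and 268, 377 and 469 reads in WT, and a share of 98.1 ± 0.967% and 94.9 ± 2.17%, without overlap. A GT donor 4 nt on had 2, 0 and 5 reads in S34F and 4, 8 and 16 reads in WT, and a GT donor 149 nt on had 0, 3 and 2 reads in S34F and 5, 10 and 22 reads in WT. Both minor donors were thus rare in both genotypes. The 3 donors are shown with the first intron bases in capitals, at chr15:76158084-76158105, chr15:76158088-76158109 and chr15:76158233-76158254.
Exosc4 GC donor: gccgcacgagGCgagtaagcgg
Exosc4 donor 4 nt on: cacgaggcgaGTaagcggcggg
Exosc4 far donor: tctcacacagGTtgtcccaacg

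The remaining ring subunits varied less or more irregularly. In Exosc5 the main acceptor of exon 3 had 885, 940 and 854 reads in S34F and 948, 1393 and 2168 reads in WT, and an unannotated acceptor 79 nt upstream had 40, 38 and 28 reads in S34F and 32, 34 and 86 reads in WT. The main acceptor took 96.2 ± 0.580% in S34F and 96.8 ± 0.723% in WT, with overlap. In Exosc7 an unannotated acceptor 4 nt inside exon 2 had 1, 20 and 14 reads in S34F and 12, 10 and 0 reads in WT, which is 3.25 ± 2.81% and 2.03 ± 1.77%. Its difference of 1.22 points lay between -0.08 and 2.70 with libraries left out in turn.

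Of the cap subunits besides Exosc3, Exosc1 had the largest difference at exon 6, of 51 nt. Exon 5 was joined to exon 6 by 280, 279 and 209 reads in S34F and 300, 338 and 555 reads in WT, and to exon 7 by 16, 5 and 3 reads in S34F and 29, 15 and 28 reads in WT. Exon 5 was also joined to exon 8 by 3, 9 and 2 reads in S34F and 0, 7 and 30 reads in WT. Of all these reads, the share of the junction to exon 6 was 95.5 ± 2.02% in S34F and 91.9 ± 1.78% in WT, with overlapping libraries. The difference was 3.64 points, and 3.10 with the junctions to exons 6 and 7 alone. In Exosc2 an inner acceptor 47 nt inside exon 7 had 14, 12 and 10 reads in S34F and 0, 14 and 0 reads in WT, or 2.93 ± 0.298% and 0.751 ± 1.30%. An unannotated acceptor 4 nt inside exon 7 had 2, 17 and 10 reads in S34F and 14, 26 and 0 reads in WT. WT replicate 3, the deepest library, had 0 reads of both, and the part of such zeros was not tested. A second Exosc2 choice, a donor 13 nt past the end of exon 2, had 7.83 ± 3.28% in S34F and 7.35 ± 1.71% in WT.

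**Figure D3:**
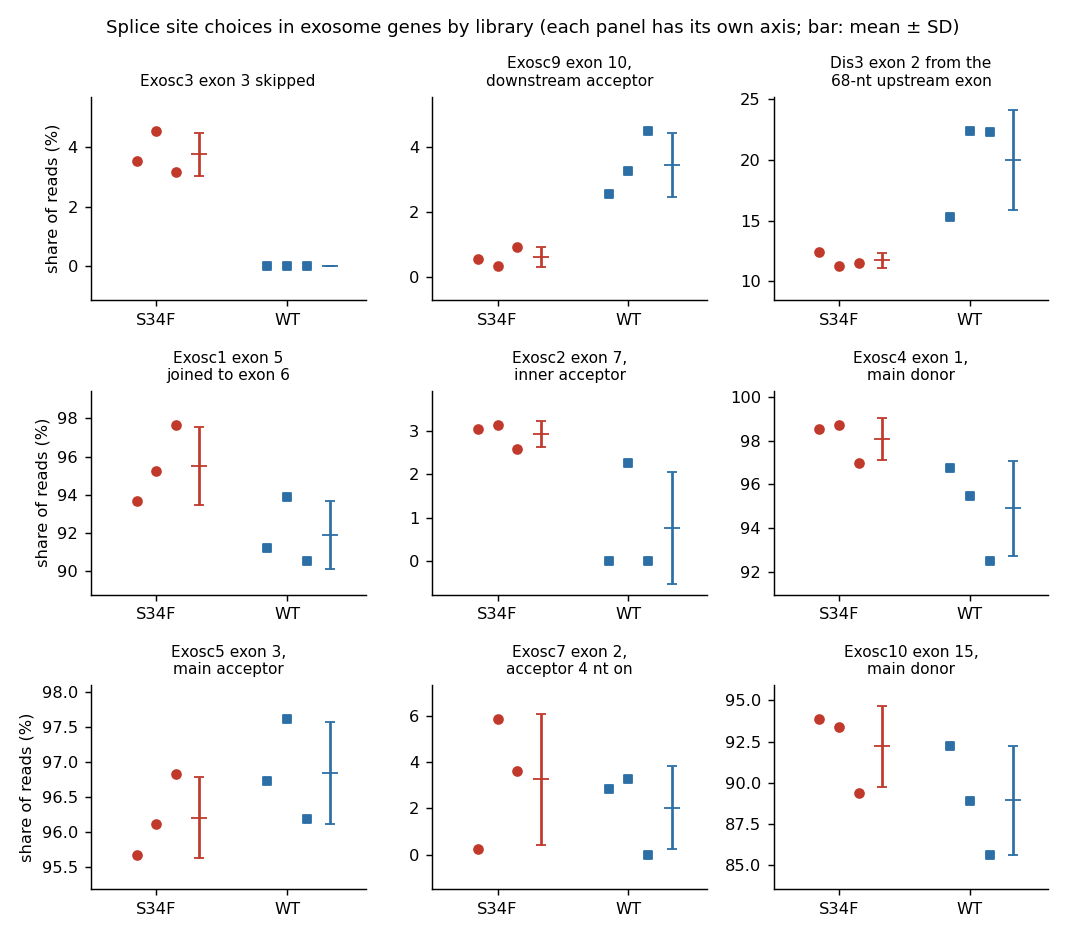
Share of reads, in percent, of a splice site choice in 9 of the exosome genes (vertical axes, which differ between panels) in the 3 S34F libraries (red circles, left) and the 3 WT libraries (blue squares, right), with the mean ± SD. The Exosc3 skip is at 0 in every WT library, the Exosc9 downstream acceptor is lower in all S34F libraries than in all WT libraries, and Exosc8 is left out because its choice rested on few reads.

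Acceptor choices of the other genes that include a site with A at -3 are shown, since the described choices of Exosc2, Exosc5, Exosc7, Exosc8 and Exosc10 hold such a site. They were picked for that base, and further competing acceptors of Exosc1, Exosc8, Exosc10 and Dis3 have no A. Their stretches lie at chr4:147955847-147955876, chr9:123027989-123028018, chr2:31533949-31533978, chr2:31533996-31534025, chr7:26449245-26449274, chr7:26449324-26449353, chr3:54535939-54535973 and chr3:54535086-54535115, in the order given.
Exosc10 exon 24 acceptors: tcataactcttctctttCAGaAAGgtgttg
Exosc7 exon 2 acceptors: catgaaccttgttccttTAGgAAGaccttc
Exosc2 exon 7 first acceptor: gtctcatggtctgtctcttTAGctaggtca
Exosc2 exon 7 inner acceptor: tctcgccttccctggtgaaAAGacagaaga
Exosc5 exon 3 upstream acceptor: ggctgacagccccttcctgAAGtctccctc
Exosc5 exon 3 acceptor: tgaccgcttcccgtctcccCAGgcgtggcc
Exosc8 exon 7 acceptor: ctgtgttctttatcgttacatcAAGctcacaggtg
Exosc8 exon 8 acceptor: tttcttctgtcaattatttTAGcttgcttg
In each of the pairs picked here the site with A stands against a site with C or T.

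Over all acceptor choices of the exosome genes, 9 forms in 7 genes had A at -3, and 8 of the 9 had a higher mean share in S34F, with a median difference of 2.18 percentage points. Of the 15 forms with T, 3 were higher, with a median of -1.26 points, and of the 14 with C, 8 were higher, with a median of 0.78 points. The exception with A was the acceptor of Dis3 exon 13. The forms with A of Exosc2, of Exosc7 and at the inner acceptor of Dis3 exon 5 each had a WT library at 0 reads. The Exosc2 form is the one at the median. For the forms of Exosc5 and Exosc7 the libraries overlapped. Over all genes tested, 61.8% of 2555 forms with A were higher in S34F (median 0.69 points), 37.4% of 9133 with T (median -0.80 points) and 55.0% of 17789 with C (median 0.27 points). The genes were chosen with this contrast known, so these counts support nothing. Forms of a single donor share reads, so a gain of 1 form is a loss of another, and these counts are not independent. The bases themselves were not unusual: of 101 annotated acceptors of the exosome genes 29.7% had T, 61.4% C and 8.91% A, against 31.1%, 62.7% and 5.89% of all annotated acceptors.

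**Figure D4:**
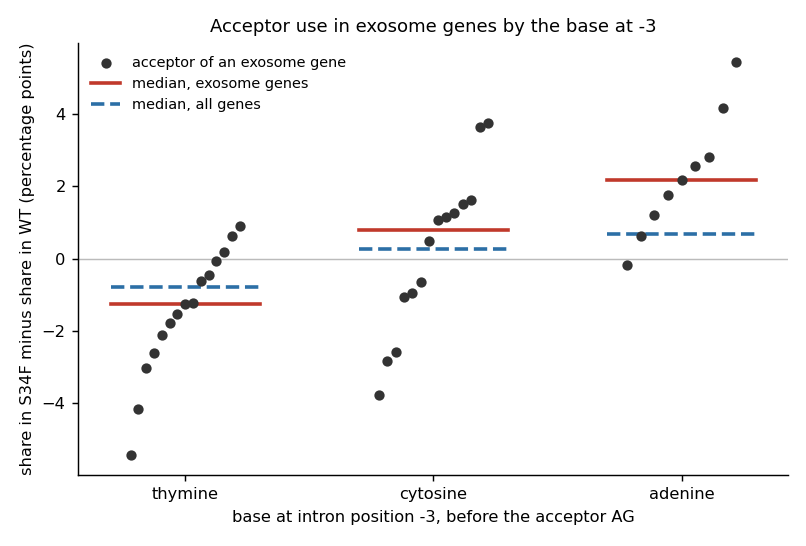
Mean share in S34F minus mean share in WT, in percentage points, for acceptor forms of exosome genes, grouped by the base at intron position -3. Each point is an acceptor form, red lines are medians of the exosome genes (-1.26 for thymine, 0.78 for cytosine and 2.18 for adenine) and dashed blue lines are medians of all genes (-0.80, 0.27 and 0.69).

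In all, the libraries of the genotypes did not overlap for 15 of 39 acceptor forms of exosome genes, against 17% of all acceptor forms. They did not overlap for 10 of 44 donor forms, against 14.8% of all, and for 3 of 9 cassette exons, against 19.3% of all. Competing forms of a site are each counted, though a gain of one is a loss of another. The Exosc3 skip is in both the acceptor and the donor count. These counts are thus not independent and support nothing. Of the 140 exosome junctions, 28 were unannotated, and these took 0.723 ± 0.0940% of exosome junction reads in S34F and 0.671 ± 0.00905% in WT. Over all genes unannotated junctions took 0.772 ± 0.0270% and 0.765 ± 0.0143% of junction reads.

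The genes that work with the exosome were taken from lists chosen with these data known, not by how they moved. Nuclear cofactors deliver RNA to the nuclear complex, and 17 of the 21 listed symbols were measured, 10 higher and 7 lower in S34F with a median log2 fold change of 0.08. Some of these genes were listed under both an older and a newer symbol, so an unmeasured symbol need not be an undetected gene. Cytoplasmic cofactors, the SKI complex and its partners, were measured for 7 of 7, 2 higher and 5 lower with a median of -0.07. Of 24 other exonuclease, deadenylase and decapping genes 10 were higher and 14 lower, with a median of -0.05. The median of all genes was -0.0052. In each list edgeR called 0 genes over all genes tested, and DESeq2 also 0. At an unadjusted edgeR p under 0.05 there were 1 of 17, 3 of 7 and 5 of 24 genes, against 9.1% of all genes. Dis3l, the cytoplasmic relative of Dis3, averaged 30.4 ± 0.760 CPM in S34F, against 34.6 ± 2.18 CPM in WT (log2 fold change -0.19, edgeR adjusted p = 0.579).

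The lowest edgeR p among nuclear cofactors belonged to Ncbp2, the small subunit of the nuclear cap-binding complex. It was at 30.5, 35.7 and 31.0 CPM in S34F and 27.9, 70.3 and 63.9 CPM in WT (log2 fold change -0.74 ± 0.31, edgeR adjusted p = 0.548), and WT replicate 1 lay with the S34F libraries. Zfc3h1, a scaffold of the complex that delivers polyadenylated RNA to the exosome, was at 114 ± 4.36 and 94.8 ± 15.2 CPM (0.27 ± 0.13, adjusted p = 0.565). Among cytoplasmic cofactors, Gtpbp1 averaged 91.6 ± 2.14 CPM in S34F, against 116 ± 11.6 CPM in WT (-0.34 ± 0.10, adjusted p = 0.538), and its relative Gtpbp2 was at 47.3 ± 1.43 and 56.9 ± 3.36 CPM (-0.26 ± 0.09, adjusted p = 0.538). For both genes all S34F libraries lay below all WT libraries. In the third list, Eri1, a 3' exonuclease of histone mRNA and small RNA, was at 141 ± 7.16 and 107 ± 13.0 CPM (0.39 ± 0.11, adjusted p = 0.538). Xrn2, the nuclear 5' exonuclease, was at 228 ± 8.38 and 290 ± 26.4 CPM (-0.35 ± 0.10, adjusted p = 0.538).

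**Figure D5:**
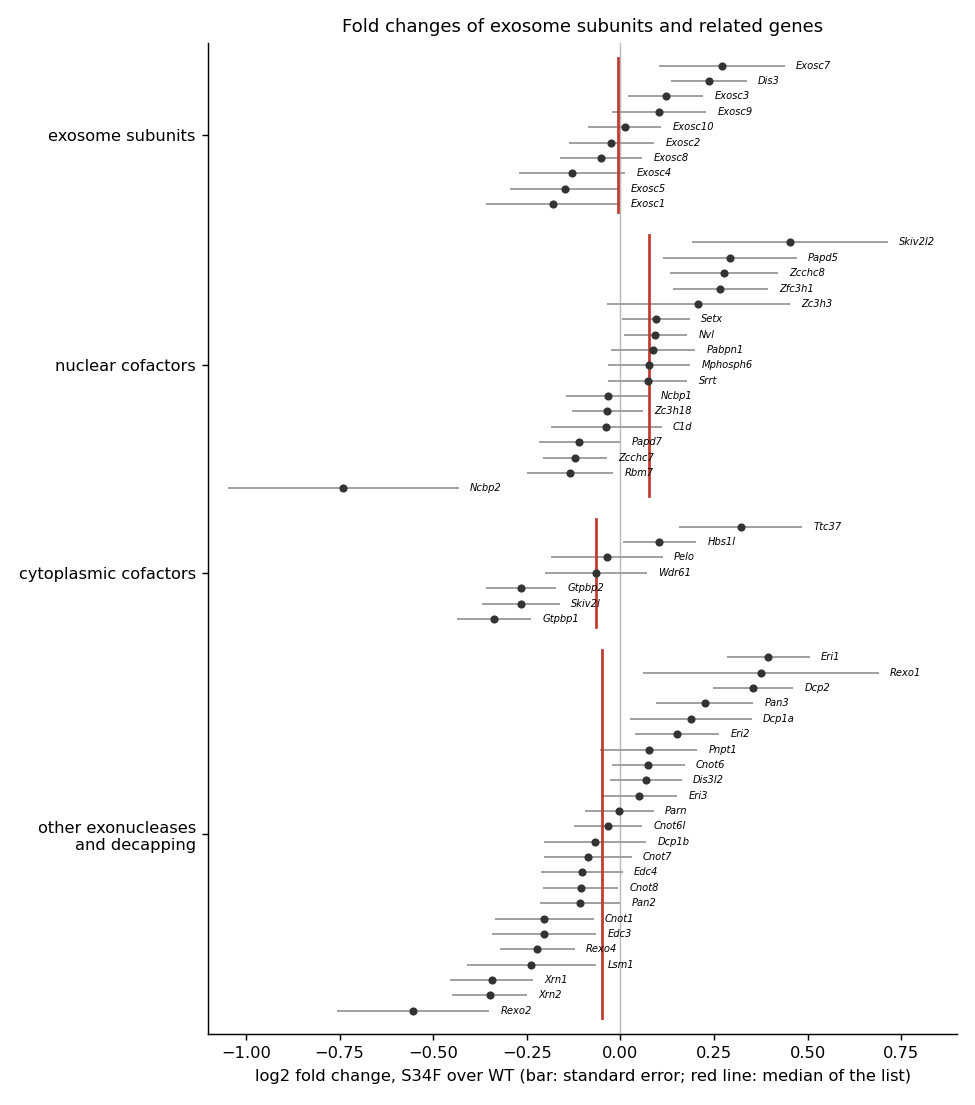
Log2 fold change, S34F over WT, of each exosome gene and of each measured gene of 3 related lists (horizontal axis; points with the standard error as bars), with the median of each list as a red line. The exosome genes lie between -0.18 and 0.27 around a median near 0, as do the medians of the related lists.

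Splicing of these related genes held DESeq2 calls in 4 genes. Over their 264 acceptor choices DESeq2 called 7, against 1.24% of all, over 82 cassette exons 1, against 1.4% of all, and over 253 donor choices 0, against 0.816% of all. edgeR called 0 of each, against 0%, 0% and 0.00997% of all. Both competing forms are counted for Xrn1, Xrn2 and Zc3h18, and the Xrn1 exon is in both the acceptor and the cassette count. These counts are thus not independent. In Xrn1, the cytoplasmic 5' exonuclease, an exon of 104 nt with T at -3 had an inclusion of 88.6 ± 1.21% in S34F, against 97.3 ± 0.821% in WT (DESeq2 adjusted p = 0.0441, edgeR adjusted p = 0.293). In Xrn2 an acceptor with C at -3 took 6.23 ± 0.763% in S34F and 1.91 ± 0.350% in WT, at the cost of an acceptor with T 24 nt on (DESeq2 adjusted p = 0.00170, edgeR 0.431). Acceptors of Skiv2l (2.95 ± 0.797% in S34F and 0% in WT, DESeq2 adjusted p = 0.0123) and of Zc3h18 (2.60 ± 0.950% in S34F and 0% in WT, DESeq2 adjusted p = 0.00170) were, as in Exosc3, at 0 reads in every WT library. Their edgeR adjusted p was 0.431 for both. In S34F the Skiv2l acceptor had 4, 6 and 9 reads and the Zc3h18 acceptor 16, 10 and 8, fewer than the Exosc3 skip. The part of zeros like those searched for above was not tested for these acceptors.

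Outside these lists, the genes whose pattern over the 6 libraries was most like the mean of the 10 exosome genes were Hira, a histone chaperone gene, with a Pearson correlation of 0.99, Lrrc24 (0.99), Samm50, a gene of the mitochondrial outer membrane (0.99), Spata24 (0.99) and D830039M14Rik (0.99). The 6 libraries are few for such a ranking over 13905 genes, and these values describe likeness alone. The 10 exosome genes did not share a single pattern. Of their 45 pairs, 29 had a correlation above 0, with a median of 0.22 and a lowest value of -0.87 (Exosc7 with Exosc8). Lrrc24 (0.25 to 0.52 CPM) and D830039M14Rik (0.27 to 0.73 CPM) were at very low levels. Hira was at 107, 116 and 108 CPM in S34F and 103, 107 and 114 CPM in WT. Its highest libraries, S34F replicate 2 and WT replicate 3, were also those with the highest summed level of the exosome genes.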

How the data were processed

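Ribosomal RNA was depleted and stranded libraries were sequenced as pairs of reads, per the labels' protocols. The submitters' processing notes name TopHat2 2.0.8, Bowtie2 2.1.0, HTSeq 0.5.4p1, Cufflinks 2.1.1 and DESeq2 1.6.1, without a role for each, and the build mm9. The authors deposited raw read counts per gene and per splice junction, with no normalization, and FPKM per gene. Per the file headers the tables also hold the authors' fold change as a ratio and in log2, p-values before and after adjustment, a DEXSeq score (test statistic and dispersion) and a mean count as coverage signal. Titles and column names gave the genotype of each library, since the genotype entry of the characteristics read S34F for all 6 samples.

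Gene counts were tested with edgeR 4.0.16 (TMM, default filter, quasi-likelihood F test, R 4.3.3), which kept 13905 genes, and with DESeq2 1.42.0. For introns that share a donor, or an acceptor, reads of each form were tested against the other forms, with a term per library and genotype by form. Counts of acceptor or donor choices are counts of forms, so competing forms of a site are each counted. Each choice needed 20 reads in every library and a minor form at 1%, or 2% for cassette exons of 10 to 1000 nt. Limma 3.58.1 used log2 ratios with 0.5 added. P-values are two-sided and Benjamini-Hochberg adjusted over all features. The scripts were tested on simulated data. Junction positions as printed are exon bases: 0% of GT-AG introns carried these bases as printed and 99.985% after a shift of 1 base inward. Exons are numbered in the annotated transcript with the longest coding sequence (GENCODE with Ensembl 65).

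The members and lists were chosen with earlier results of these data known. Named events were every Exosc3 choice and, for each other member, the choice with the largest difference and any choice called by edgeR or DESeq2. The further choices that are described were chosen after their values were seen. Of the related lists, the 2 genes of lowest edgeR p are named, and the 5 genes most like the members. No permutation test was run on sums over the members, because the members were chosen from these values. The replicates were separate pools of mice, and whether pools shared donors is not given in the sources used here.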

Additional observations from a re-analysis of the deposited data

How the results depend on the processing

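The edgeR count of changed genes was 0, and 0 with DESeq2 size factors or without the expression filter. It was 96 with DESeq2, 0 to 1172 with libraries left out in turn and 599 without both replicate 1 libraries. The 1172 came without WT replicate 1. Cassette exons changed numbered 0 by edgeR, 113 by DESeq2, 3 with a 5% minor form and 0 in each fit without a library. Acceptor choices numbered 0 by edgeR, 368 by DESeq2, 59 by limma, 5 with a 5% minor form and 5 without choices that had a library at 0, an alternative chosen after seeing the data. Donor choices numbered 3 by edgeR, 236 by DESeq2, 66 by limma, 0 to 5 with libraries left out in turn and 0 without both replicate 1 libraries. The cause of these differences was not tested.

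A replicate block in the fit gave 5 edgeR gene calls, 0 cassette exons, 0 acceptor and 0 donor choices, and 440 DESeq2 gene calls. Deviations of same-numbered libraries from their genotype means correlated at 0.208, 0.272 and 0.024. S34F replicates 1 and 2 correlated best with the WT library of the same number, and S34F replicate 3 with WT replicate 1 (0.078). Replicate 1 of both genotypes also shared a Xist level near 0. No label says what the numbers stand for, so the main fit did not pair the libraries. Whether they are paired was not settled.

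No setting turned the direction of the log2 fold change of Exosc1, Exosc3, Exosc4, Exosc5, Exosc7 or Dis3. Their size did move with libraries left out in turn. It ran from -0.33 (without S34F replicate 2) to -0.03 (without WT replicate 3) for Exosc1, from -0.28 to -0.03 without the same libraries for Exosc5, and from -0.24 (without S34F replicate 2) to -0.03 (without S34F replicate 1) for Exosc4. It ran from 0.07 (without WT replicate 3) to 0.18 (without WT replicate 2) for Exosc3, from 0.14 to 0.48 for Exosc7 and from 0.19 to 0.30 for Dis3. Those of Exosc2, Exosc8, Exosc9 and Exosc10, all near 0, changed sign without single libraries. No cassette exon of a member was named by rule, so inclusion from single junctions was not run. Depth limited the minor forms, several of which rested on under 20 reads in a library.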
